A study of Homo sapiens with 8 samples.

Results

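Transcription and splicing factors that set epithelial or mesenchymal identity were examined by RNA sequencing in CFPAC-1 cells, a long-established line from a human ductal adenocarcinoma of the pancreas. The 10 genes were ZEB1, ZEB2, SNAI1, SNAI2, TWIST1, TWIST2, ESRP1, ESRP2, GRHL2 and OVOL1, taken by symbol from the 58870 genes of the deposited table. All 10 were listed, and 8 passed the filter on low counts and were tested. Control cells held an empty vector (n = 4), and the other cells held an ADRA2A transgene (n = 4), which codes for the alpha-2A adrenergic receptor. Both groups were untreated and were grown for 72 hours in the same serum-containing IMDM medium with antibiotics. The promoter of the transgene, the clonality of the lines and whether the samples of a group were separate cultures are not given in the sources used here, so p-values measure the spread between these samples, which may be technical. The comparison asked what ADRA2A expression changed in these cells, in a study concerned with subtypes of pancreatic cancer.

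Epithelial-mesenchymal transition (EMT) is the change by which epithelial cells lose junctions and polarity and gain motile, matrix-producing features. ZEB, Snail and Twist proteins are DNA-binding factors that repress epithelial genes such as CDH1, which encodes E-cadherin. ESRP1 and ESRP2 are RNA-binding proteins that keep epithelial exon choices, and GRHL2 and OVOL1 are transcription factors of epithelial cells. ZEB1 and ZEB2 stand in mutual repression with microRNAs of the miR-200 family, and GRHL2 and OVOL proteins are known to repress ZEB1.

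ADRA2A itself had 0 counts in all 4 empty-vector libraries and between 112 and 172 counts in the ADRA2A libraries, which is the direction the labels give. The libraries held between 14427040 and 17528910 counts each. Levels are given as CPM, the count of a gene relative to the total of its library on a common scale, after TMM scaling (trimmed mean of M values). Changes are log2 fold changes, ADRA2A over empty vector, from edgeR's quasi-likelihood test over 14785 tested genes, with Benjamini-Hochberg adjusted p-values and a threshold of 0.05. In this contrast 42.7% of all tested genes passed the threshold, 21.6% of them as higher and 21.1% as lower in the ADRA2A cells. The ductal markers KRT7, KRT8, KRT18, KRT19, EPCAM and CDH1 all had group means of at least 327 CPM, whereas CFTR, the chloride channel of ductal cells, had only 4 to 20 counts per library. In bulk RNA, fewer cells of a kind and less RNA per cell cannot be told apart.

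Of the 8 tested factors, 1 rose and 3 fell in the ADRA2A cells. ZEB1 rose 1.52-fold, SNAI2 fell by 44.4%, and ESRP1 and ESRP2 fell by 12.1% and 12.5%. ZEB2, TWIST2, GRHL2 and OVOL1 did not pass the test, and SNAI1 and TWIST1 were too low to be tested. The 4 called of 8 tested are a share close to the 42.7% of all tested genes, so the number of calls is not a result about these factors. Their median log2 fold change was -0.19, beside 0.00 over all tested genes.

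**Figure D1:**
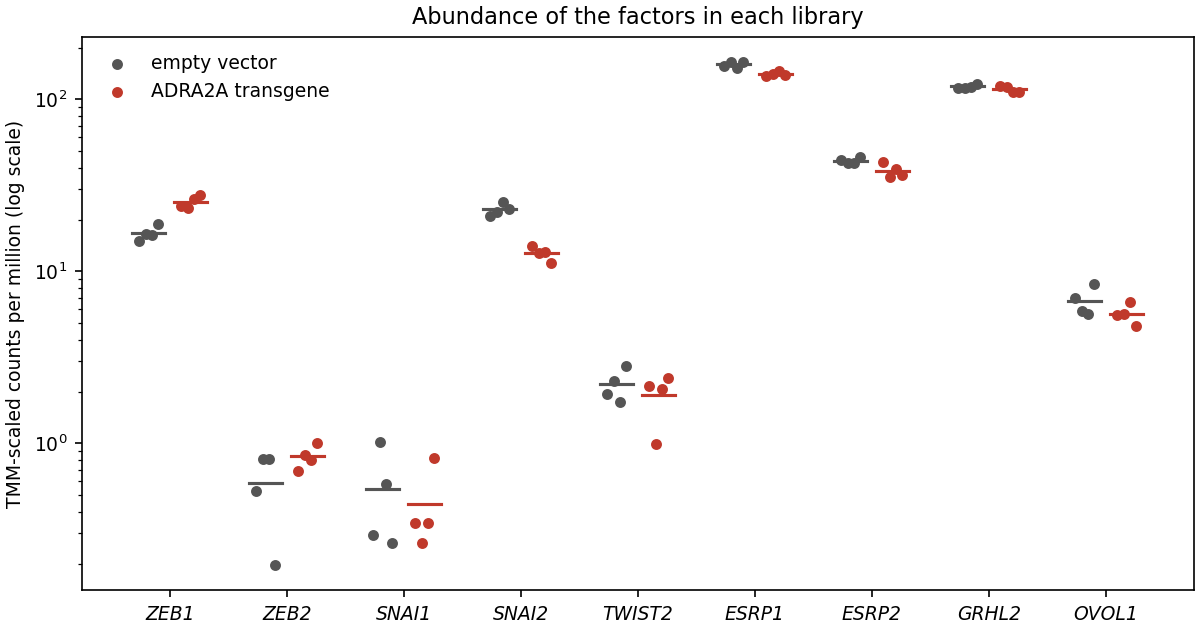
Abundance of 9 factors in each library (CPM, log axis) for the empty-vector (grey, n = 4) and ADRA2A (red, n = 4) cells, with 1 point per library and a bar at the group mean. The groups separate for ZEB1, SNAI2 and ESRP1 and overlap for the other factors drawn, and TWIST1 is not drawn because it had 0 counts.

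Per kilobase of exon, 3 of the 4 epithelial factors were the most abundant of the 10, and OVOL1 stood below SNAI2 and ZEB1. In the empty-vector cells ESRP1 stood first at 32.8 ± 1.25 CPM per kb (SD, n = 4), followed by GRHL2 at 19.6 ± 0.409 and ESRP2 at 8.48 ± 0.306. SNAI2 came next at 6.98 ± 0.560 CPM per kb and was the most abundant of the EMT repressors. ZEB1 at 1.92 ± 0.178 and OVOL1 at 1.77 ± 0.329 CPM per kb did not differ beyond their spread, with libraries from 1.75 to 2.17 and from 1.48 to 2.20. TWIST2 had 1.03 ± 0.222, SNAI1 0.316 ± 0.206 and ZEB2 0.0225 ± 0.0112 CPM per kb. The order was the same in the ADRA2A cells, but the distance between SNAI2 and ZEB1 shrank. There SNAI2 had 3.88 ± 0.352 and ZEB1 2.92 ± 0.232 CPM per kb, and ZEB1 libraries (2.70 to 3.20) no longer overlapped those of OVOL1 (1.26 to 1.75). VIM, the mesenchymal intermediate filament gene, stood at 304 ± 8.06 CPM per kb in the same empty-vector cells, above EPCAM at 194 ± 2.38 and CDH1 at 67.9 ± 1.96. CDH2, which encodes N-cadherin, was at 21.0 ± 0.539 CPM per kb, so epithelial and mesenchymal transcripts were present side by side.

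ZEB1 (ENSG00000148516.21; GRCh38 chromosome 10, 31318495 to 31529814, plus strand) encodes a zinc-finger and homeodomain repressor. Its level was 15.1, 16.4, 16.3 and 18.8 CPM in empty-vector replicates 1 to 4 and 23.9, 23.4, 26.2 and 27.7 CPM in ADRA2A replicates 1 to 4. All ADRA2A libraries lay above all empty-vector libraries. The group means were 16.6 ± 1.54 and 25.3 ± 2.01 CPM (SD, n = 4 in both). ZEB1 was higher by 0.61 ± 0.08 on the log2 scale (SE; 95% interval 0.44 to 0.78; edgeR adjusted p = 5.18e-06). That difference stood at the 93.8th percentile of all tested genes. The libraries of both groups were fully separate for 39.2% of all tested genes, and for 3 of the 8 tested factors, a share near that background.

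ZEB2 (ENSG00000169554.20; chromosome 2, 144364364 to 144521057, minus strand), the paralog of ZEB1, was near the limit of detection. It had 9, 12, 14 and 3 counts in the empty-vector libraries and 10, 13, 14 and 16 in the ADRA2A libraries. The low library was empty-vector replicate 4, and the ranges of both groups overlapped. The fitted difference was 0.51 on the log2 scale with a 95% interval of -0.29 to 1.31 (edgeR adjusted p = 0.306), and no difference was detectable at this depth. Leaving out 1 library moved it between 0.23, without empty-vector replicate 4, and 0.71, without empty-vector replicate 3.

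Because ZEB1 and ZEB2 are the known targets of the miR-200 family, the mature strands from RefSeq (GRCh38.p14) are shown with the seed, bases 2 to 8, in capitals. They fall into 2 groups that share a seed.
miR-200b-3p: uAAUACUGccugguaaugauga
miR-200c-3p: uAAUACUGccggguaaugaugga
miR-429: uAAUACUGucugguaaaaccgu
miR-200a-3p: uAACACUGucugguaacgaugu
miR-141-3p: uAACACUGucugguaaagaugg
The first 3 pair with the letters CAGTATT in a transcript and the last 2 with CAGTGTT. In the 3′UTR of the main ZEB1 transcript (2540 bases; GENCODE release 44), CAGTATT occurred 6 times and CAGTGTT 3 times. Of 2332 3′UTRs within 20% of that length, 1 held at least as many matches, which was ZEB1 itself. The ZEB2 3′UTR (5370 bases) held 9 matches, a number reached by 2 of 1144 3′UTRs of similar length, ZEB2 itself included. Among the other factors ESRP1 had 2 matches, SNAI2 and GRHL2 had 1 each, and SNAI1, TWIST1, TWIST2, ESRP2 and OVOL1 had 0. A match is a description of the letters and not a tested site. The microRNAs were not measured here beyond their gene rows, and MIR200CHG, the host transcript of miR-200c and miR-141, had 9 counts over the 4 empty-vector libraries and 5 over the 4 ADRA2A libraries.

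SNAI2 (ENSG00000019549.12; chromosome 8, 48917598 to 48921740, minus strand) encodes Slug, a zinc-finger repressor of the Snail family. It had 21.1, 22.1, 25.4 and 23.0 CPM in the empty-vector libraries and 14, 12.8, 13 and 11.2 CPM in the ADRA2A libraries. The lowest empty-vector library was above the highest ADRA2A library. The means were 22.9 ± 1.84 and 12.7 ± 1.15 CPM (SD, n = 4 per group), and the fitted difference was -0.85 ± 0.09 on the log2 scale (SE; 95% interval -1.03 to -0.67; edgeR adjusted p = 1.33e-07). This was the largest difference among the 8 tested factors and stood at the 2.96th percentile of all tested genes. SNAI2 fell while ZEB1 rose, and both are known repressors of CDH1.

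SNAI1 (ENSG00000124216.4; chromosome 20, 49982980 to 49988886, plus strand), which encodes Snail, did not pass the filter. It had 5, 15, 10 and 4 counts in the empty-vector libraries and 5, 4, 6 and 13 in the ADRA2A libraries. The highest libraries were empty-vector replicate 2 and ADRA2A replicate 4, and the groups overlapped. Pooled over libraries this was 0.528 CPM without TMM scaling (95% exact binomial interval 0.365 to 0.737, counting error only) and 0.445 CPM (0.296 to 0.643). A difference was not detectable at this depth.

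TWIST1 (ENSG00000122691.13; chromosome 7) and TWIST2 (ENSG00000233608.4; chromosome 2, 238848032 to 238910534, plus strand) encode basic helix-loop-helix factors of mesenchymal cells. TWIST1 had 0 counts in all 8 libraries, which allows up to 0.0466 CPM in the pooled empty-vector libraries and 0.0477 in the pooled ADRA2A libraries (3 counts of the total). TWIST2 had 1.93, 2.31, 1.74 and 2.81 CPM in the empty-vector libraries and 2.15, 0.990, 2.06 and 2.40 CPM in the ADRA2A libraries. Its groups overlapped, and the log2 fold change of -0.20 had a 95% interval of -0.76 to 0.36 (edgeR adjusted p = 0.579). It was -0.06 without empty-vector replicate 4, 0.01 without ADRA2A replicate 2 and -0.33 without ADRA2A replicate 4.

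The splicing factor ESRP1 (ENSG00000104413.17; chromosome 8, 94641074 to 94707466, plus strand) was the most abundant of the 10 genes. It had 157, 164, 152 and 165 CPM in the empty-vector libraries and 136, 140, 146 and 139 CPM in the ADRA2A libraries. The groups did not overlap, although the gap between them was small. The means were 160 ± 6.10 and 140 ± 4.08 CPM (SD, n = 4 per group). The fitted log2 difference was -0.19 ± 0.04 (SE; 95% interval -0.27 to -0.11; edgeR adjusted p = 0.000652). By absolute log2 fold change, ESRP1 stood at the 52.0th percentile of all tested genes, whose median was 0.177.

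ESRP2 (ENSG00000103067.13; chromosome 16, 68229033 to 68238102, minus strand), its paralog, showed nearly the same difference with a wider spread. It had 44.1, 42.8, 42.9 and 46.2 CPM in the empty-vector libraries and 43.3, 35.4, 39.4 and 36.1 CPM in the ADRA2A libraries. ADRA2A replicate 1 lay within the empty-vector range. The group means were 44 ± 1.59 and 38.5 ± 3.59 CPM (SD, n = 4 per group). The fitted log2 difference was -0.19 ± 0.06 (SE; 95% interval -0.32 to -0.06; edgeR adjusted p = 0.0165). By absolute log2 fold change, ESRP2 stood at the 53.1st percentile of all tested genes. The call was lost in 3 of the 8 fits that left out 1 library, with an adjusted p of 0.0573 without empty-vector replicate 4, 0.0644 without ADRA2A replicate 2 and 0.0568 without ADRA2A replicate 4.

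GRHL2 (ENSG00000083307.11; chromosome 8, 101492439 to 101669726, plus strand) encodes a Grainyhead-like factor that drives junction genes. It had 117, 117, 118 and 123 CPM in the empty-vector libraries and 120, 118, 110 and 111 CPM in the ADRA2A libraries. The groups overlapped, with a log2 fold change of -0.05 (95% interval -0.14 to 0.03; edgeR adjusted p = 0.312). In fold terms that interval runs from 0.908 to 1.02.

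OVOL1 (ENSG00000172818.10; chromosome 11, 65787063 to 65797214, plus strand) encodes a zinc-finger factor of epithelial differentiation. Its level was 7.03, 5.90, 5.63 and 8.38 CPM in the empty-vector libraries and 5.54, 5.61, 6.64 and 4.81 CPM in the ADRA2A libraries. The groups overlapped, with the highest value in empty-vector replicate 4. The log2 fold change was -0.25 with a 95% interval of -0.56 to 0.06 (edgeR adjusted p = 0.189), and it was -0.13 without empty-vector replicate 4. Its relative OVOL2, which was not among the 10, went from 10.8 ± 0.567 to 9.05 ± 1.53 CPM, with a log2 fold change of -0.26 (edgeR adjusted p = 0.0742).

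**Figure D2:**
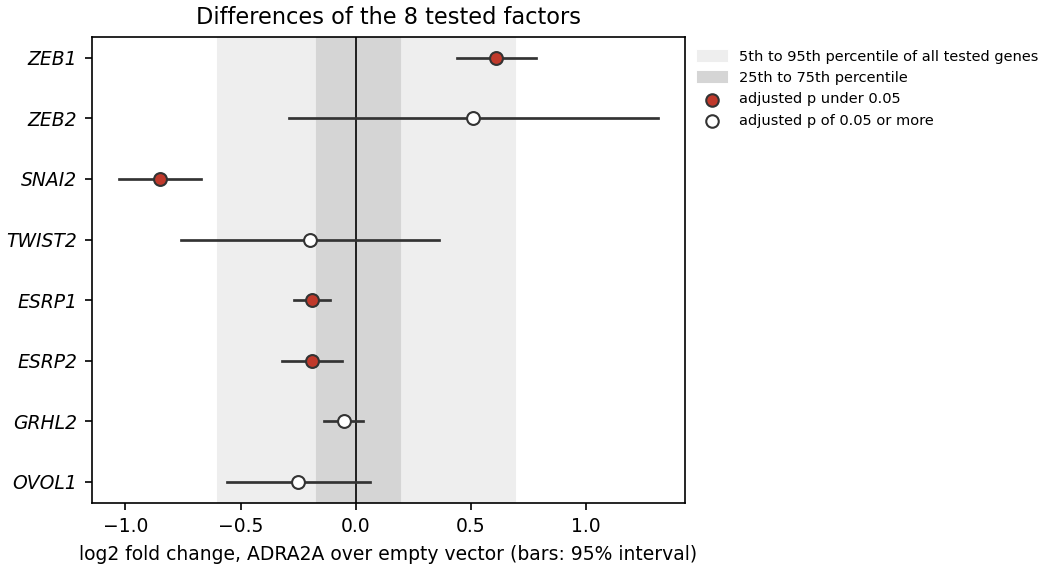
Log2 fold change, ADRA2A over empty vector, of the 8 tested factors with 95% intervals, where filled points have an adjusted p under 0.05. The dark and light bands hold the central 50% and 90% of all tested genes, and only SNAI2 at -0.85 lies outside the light band of -0.60 to 0.69.

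Whether paired factors moved apart was examined with the log2 ratio of their counts (plus 0.5 count each) within each library, which does not depend on library scaling. An exact two-sided permutation test over all 70 divisions of the libraries was used, in which the smallest possible p is 0.0286, with adjustment over 5 pairs. The ratio of ESRP1 to ESRP2 was 1.86 ± 0.05 in the empty-vector and 1.87 ± 0.15 in the ADRA2A libraries on the log2 scale (SD, n = 4 per group; exact p = 0.971). The ratio of ZEB1 to GRHL2 went from -2.84 ± 0.10 to -2.18 ± 0.17 (log2, SD, n = 4 each), with no overlap between the groups. Its exact permutation p was 0.0286, the smallest possible, and 0.143 after adjustment. The ratio of ESRP1 to GRHL2 went from 0.42 ± 0.05 to 0.29 ± 0.10, with an exact permutation p of 0.0571 (0.143 adjusted). The ratios of ZEB1 to ZEB2 and of GRHL2 to OVOL1 differed by -0.05 and 0.19, with exact p-values of 0.943 and 0.229. Without empty-vector replicate 4 these differences were 0.43 and 0.09. With 2 counts added in place of 0.5, the difference of ZEB1 to ZEB2 was 0.05 over all libraries. Its sign thus depends on that library and on the added count. No pair passed the threshold after adjustment, which over 5 pairs would need at least 3 at the smallest possible p.

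Because some stretches of chromosome can shift together between lines, each factor was set beside the 10 tested genes on either side of it. The neighbours of ZEB1 had a median log2 fold change of -0.01, with 10 above and 10 below 0. The neighbours of SNAI2 had a median of -0.02, with 9 above and 11 below 0. ZEB1 and SNAI2 thus stood 0.62 above and 0.83 below the median of their surroundings. The neighbours of ESRP1 had a median of -0.11 and those of ESRP2 of -0.07, each with 13 of 20 below 0. All 4 lay within the range of their neighbours, but at different places in it. For ZEB1, 1 of the 20 neighbours was higher, and for SNAI2, 1 of the 20 was lower. ZEB2 and TWIST2, which did not pass the test, had the same ranks, with 1 neighbour higher and 1 lower. For ESRP1 and ESRP2, 5 of the 20 were lower, and the factors differed from the neighbours' medians by -0.08 and -0.12. With 25 genes on each side the median around ESRP1 was -0.01, with 24 above and 26 below 0, and ESRP1 differed from it by -0.18. The medians around ZEB1 and SNAI2 were both 0.02 in that wider window. GRHL2, which lies on the same chromosome as ESRP1, had neighbours with a median of 0.04. CDH1, which fell by 0.33, was itself among the neighbours of ESRP2. Its own neighbours had a median of -0.06, with 14 of 20 below 0. In the wider window 33 of the 50 neighbours of CDH1 were below 0. Whether ESRP2 and CDH1 fell together with this stretch was not tested.

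**Figure D3:**
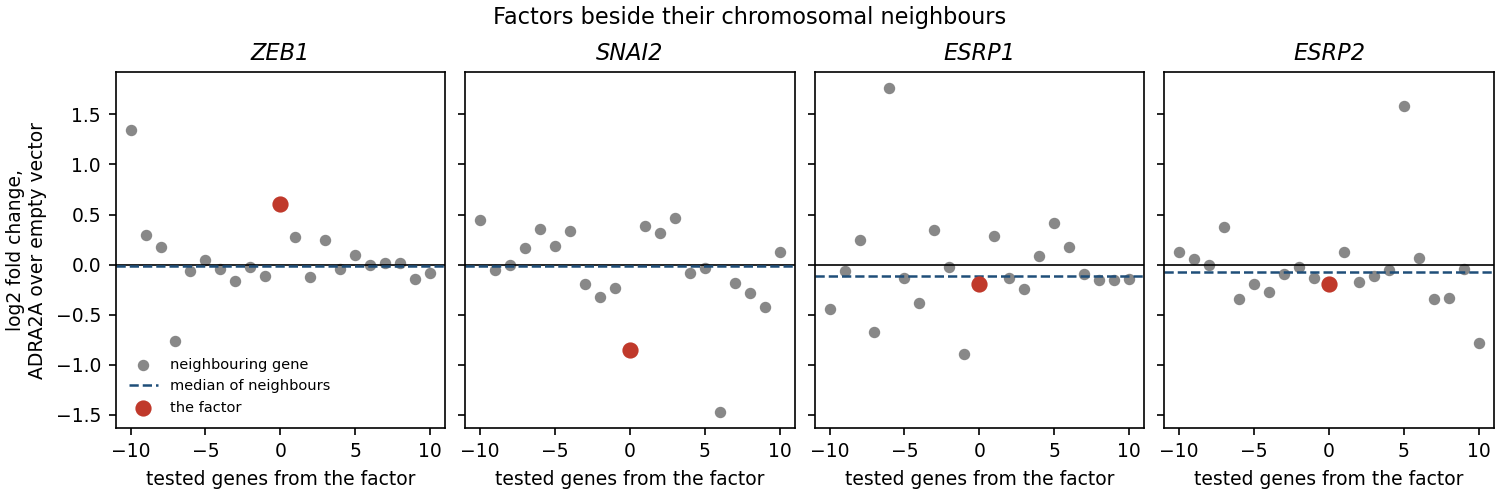
Log2 fold change, ADRA2A over empty vector, of each called factor (red, at 0) and of the 10 tested genes on either side of it in chromosome order (grey), with the neighbours' median as a dashed line. ZEB1 at 0.61 has 1 neighbour above it and SNAI2 at -0.85 has 1 below it, while ESRP1 and ESRP2 at -0.19 have 5 neighbours below them each.

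Epithelial genes that the repressors are known to act on moved in both directions. Of 30 epithelial target genes, all tested, 11 rose, 7 fell and 12 did not pass, with a median log2 fold change of 0.06 beside 0.00 over all tested genes. Most lists of this kind, including this one, had 57.7% to 80.0% of tested genes called, beside the background of 42.7%. The exceptions below were the other EMT transcription factors (6 of 12) and the antisense and microRNA host transcripts (0 of 3). The lists were chosen with earlier results of these data known. They were not compared with tested genes of similar abundance, so a share above the background is no finding about these lists. CDH1 fell from 412 ± 11.9 CPM, with libraries from 400 to 429, to 327 ± 10.9 CPM, with libraries from 312 to 335 (log2 fold change -0.33 ± 0.03, SE; edgeR adjusted p = 1.68e-07). AP1M2, which encodes an epithelial sorting adaptor subunit, fell by 0.87 and the claudin gene CLDN7 by 0.30 on the log2 scale. ERBB3, a receptor of the EGF receptor family, rose by 0.92, the tight junction gene TJP3 by 0.81 and PROM2 by 0.49. EPCAM, the epithelial adhesion molecule, rose by 0.11 (edgeR adjusted p = 0.00705).

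The E-box letters CAGGTG, or CACCTG on the other strand, are those that ZEB and Snail proteins are known to bind. They occurred in 20.6% of 35116 RefSeq promoters of 300 bases (250 before to 50 after a start; GRCh38.p14). Among 18 epithelial target genes with promoters in the table, 14 of 26 promoters held them (53.8%). The list was made of genes known as targets of these repressors, so a higher share than in all promoters is no finding of these data. Some genes, such as TJP1, also count with more than 1 promoter. By gene the E-box letters were present in 4 of 4 that fell, 4 of 7 that rose and 5 of 7 that did not pass, so the motif occurred in every class. The 18 genes hold only 4 of the 7 targets that fell and 7 of the 11 that rose. CDH1 and ERBB3 are not among them. The Grainyhead letters AACCGGTT, which are their own reverse complement, were in 0.134% of all promoters and in none of the 26 promoters. For so rare a motif that absence carries no information. The 250 bases before the start with the most E-boxes are shown for ZEB1 and for targets that fell (AP1M2, CLDN7), did not pass (CRB3) and rose (TJP3), with the E-boxes in capitals.
ZEB1 upstream, chr10:31318966-31319215, plus strand: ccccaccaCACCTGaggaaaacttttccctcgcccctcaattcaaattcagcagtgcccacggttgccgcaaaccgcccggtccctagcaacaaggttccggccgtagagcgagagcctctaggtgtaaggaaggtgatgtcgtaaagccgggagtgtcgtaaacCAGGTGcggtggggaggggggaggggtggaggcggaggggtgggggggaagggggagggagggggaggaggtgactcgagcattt
AP1M2 upstream, chr19:10587313-10587562, minus strand: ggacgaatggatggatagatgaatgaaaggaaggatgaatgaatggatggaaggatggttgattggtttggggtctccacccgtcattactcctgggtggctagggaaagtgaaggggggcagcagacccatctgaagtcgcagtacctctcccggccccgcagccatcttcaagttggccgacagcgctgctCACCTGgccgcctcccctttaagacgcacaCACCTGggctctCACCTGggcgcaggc
CLDN7 upstream, chr17:7262479-7262728, minus strand: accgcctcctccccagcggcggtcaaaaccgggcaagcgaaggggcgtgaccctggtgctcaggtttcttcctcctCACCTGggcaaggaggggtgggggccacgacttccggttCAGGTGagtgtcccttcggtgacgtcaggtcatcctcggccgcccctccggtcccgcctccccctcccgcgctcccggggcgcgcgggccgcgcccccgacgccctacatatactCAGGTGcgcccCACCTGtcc
CRB3 upstream, chr19:6464021-6464270, plus strand: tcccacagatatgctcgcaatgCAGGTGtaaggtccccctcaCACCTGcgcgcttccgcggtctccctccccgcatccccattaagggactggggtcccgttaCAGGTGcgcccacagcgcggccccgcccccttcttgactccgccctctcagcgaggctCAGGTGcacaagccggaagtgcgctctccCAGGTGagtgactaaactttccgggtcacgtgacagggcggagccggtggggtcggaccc
TJP3 upstream, chr19:3721487-3721736, plus strand: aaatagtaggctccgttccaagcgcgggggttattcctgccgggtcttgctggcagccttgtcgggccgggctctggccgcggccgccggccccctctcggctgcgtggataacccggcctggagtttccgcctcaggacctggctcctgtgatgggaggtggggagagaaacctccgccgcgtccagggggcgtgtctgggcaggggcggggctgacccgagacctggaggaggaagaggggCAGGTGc
In their 300-base promoters AP1M2 carried 3 E-boxes and CLDN7 5, of which 4 lie in the stretch shown. These were the most among the 4 that fell and had promoters in the table, since DSP had at most 2 and TJP1 1. CRB3, which encodes a polarity protein, carried 5, as many as CLDN7, and had a log2 fold change of -0.15 (edgeR adjusted p = 0.306). TJP3 carried 1 and rose, while JUP, OCLN and RAB25, which also rose, had at most 2 and CGN, MARVELD2 and PROM2 had 0. These examples were chosen after their values were seen, and a relation between the number of E-boxes and direction was not tested. The ZEB1 stretch shown carried 2 of the 3 in its 300-base promoter. It is 1 of 7 annotated ZEB1 starts in the table, so which of them these cells used was not measured.

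Mesenchymal target genes also moved in both directions. Of 25, 14 were tested, of which 3 rose and 7 fell, with a median log2 fold change of -0.20. TNC, which encodes the matrix protein tenascin C, went from 275 ± 16.3 to 128 ± 5.30 CPM (log2 fold change -1.10 ± 0.04, SE; edgeR adjusted p = 1.87e-13). COL1A1 and FN1, a collagen and fibronectin, had log2 fold changes of -1.72 and -1.27. ITGA5, the fibronectin receptor subunit, rose by 1.70 on the log2 scale from 10.0 ± 1.26 to 32.5 ± 0.927 CPM, and SPARC rose by 1.40. CDH2 rose by 0.09 (edgeR adjusted p = 0.0431) and VIM had 0.00 (edgeR adjusted p = 0.961). Of the 11 that were not tested, CDH11 and POSTN had 0 counts in all libraries.

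Among 19 other EMT transcription factors, 12 were tested, of which 2 rose and 4 fell with a median of -0.09. SOX9 and TCF3, an E-protein partner of Twist factors, fell by 0.21 and 0.23, and FOXC1 fell by 0.27 on the log2 scale. FOXQ1 rose by 0.15. SIX2 rose by 0.38, from 4.61 ± 0.625 to 6.01 ± 0.876 CPM, with overlapping groups (edgeR adjusted p = 0.0472). Among 20 other epithelial transcription factors, 18 were tested, of which 7 rose and 5 fell with a median of -0.03. ELF3 rose by 0.66 on the log2 scale from 240 ± 12.7 to 381 ± 15.0 CPM, HNF4A by 0.94 and TFAP2A by 0.38. The GRHL2 paralog GRHL3 fell by 0.69 from 4.15 ± 0.488 to 2.55 ± 0.307 CPM (edgeR adjusted p = 0.00456), whereas the paralog GRHL1 had -0.05 (edgeR adjusted p = 0.756).

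Splicing regulators beside the ESRP proteins were tested for 16 of 20 genes, of which 3 rose and 7 fell with a median of -0.08. QKI, an RNA-binding protein of mesenchymal splicing, fell by 0.42 on the log2 scale from 78.7 ± 4.60 to 58.7 ± 2.95 CPM, MBNL2 by 0.26 and KHDRBS3 by 1.59 from 3.98 ± 0.814 to 1.31 ± 0.161 CPM. PTBP2 rose by 0.46, MBNL1 by 0.19 and RBM47, an epithelial splicing factor, by 0.12. The table gives counts per gene, so exon choice itself was not measured. Of 20 genes with exons known to depend on ESRP proteins, all tested, 7 rose and 9 fell with a median of -0.10. FGFR2, the textbook ESRP target, fell by 1.57 on the log2 scale from 34.5 ± 0.773 to 11.7 ± 1.53 CPM (edgeR adjusted p = 6.09e-12), and FGFR3 rose by 1.2 from 29.5 ± 4.60 to 67.4 ± 1.60 CPM (edgeR adjusted p = 1.60e-10). CTNND1, which encodes p120-catenin, rose by 0.11 (edgeR adjusted p = 0.00656), and CD44 had 0.02 (edgeR adjusted p = 0.600).

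Co-repressors and turnover factors of the ZEB and Snail proteins were all tested, 26 genes, of which 5 rose and 10 fell with a median of -0.04. CTBP1 and CTBP2, the co-repressors recruited by ZEB1, fell by 0.22 and 0.29, and LOXL2, a lysyl oxidase-like enzyme known to stabilise Snail, fell by 1.16 on the log2 scale from 20.8 ± 0.814 to 9.28 ± 1.65 CPM. The deubiquitinase gene USP9X rose by 0.29, the deacetylase gene HDAC1 by 0.20 and the kinase gene PAK1 by 0.20. Of 12 antisense and microRNA host transcripts 3 were tested, and 0 passed with edgeR, with 0 at an unadjusted p under 0.05 and 0 with DESeq2. ZEB1-AS1, the antisense transcript that starts beside ZEB1, went from 9.72 ± 2.23 to 9.06 ± 1.21 CPM, with a log2 fold change of -0.11 (edgeR adjusted p = 0.557). The use of strand in counting is not given in the sources used here, so reads where ZEB1-AS1 and ZEB1 overlap cannot be told apart.

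**Figure D4:**
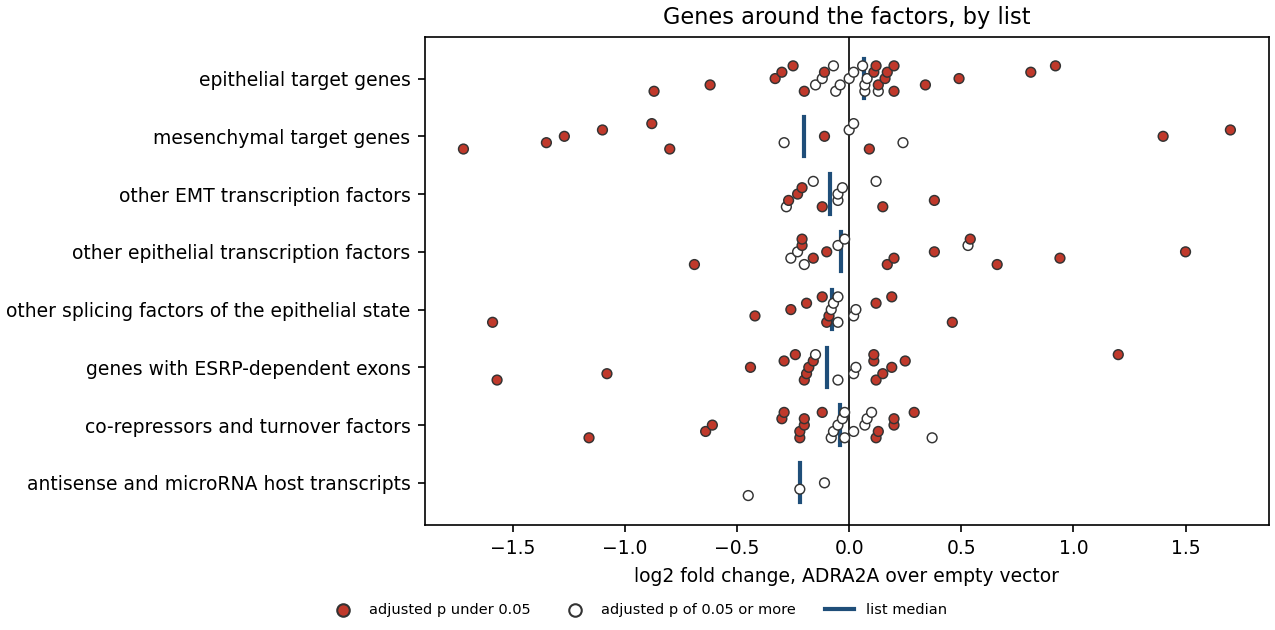
Log2 fold change, ADRA2A over empty vector, of every tested gene of the 8 lists around the factors, with filled points at an adjusted p under 0.05 and a blue line at the list median. Medians lie between -0.22 and 0.06, and each list of more than 3 tested genes holds filled points on both sides of 0.

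The genes whose log2 CPM followed each called factor most closely over the 8 libraries, among those of at least 10 CPM, were FZD5, ATP6V1G1 and SIRPA for ZEB1 (Pearson's r 0.992, 0.990 and 0.988). For SNAI2 they were GTF3A, NCAPG and VOPP1 (0.995, 0.995 and 0.994). DCBLD1, BLM and HMGCS1 were nearest to ESRP1 (0.984, 0.982 and 0.982), and CAP2, ELMO2 and KBTBD2 to ESRP2 (0.983, 0.977 and 0.964). These 8 points share the division into groups, so the values describe that division together with library differences.

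Markers of other cell types were read beside these results. Of 10 fibroblast markers all had counts, but their summed level of 79.1 to 83.9 CPM in the empty-vector and 24.2 to 27.2 CPM in the ADRA2A libraries was nearly all COL1A1, and the other 9 had at most 25 counts in any library, with the most in LUM (7 to 25), COL6A3 (4 to 23) and COL1A2 (1 to 12). Of 10 leukocyte markers 3 (CD3E, TYROBP and AIF1) were at 0 and PTPRC had at most 4 counts per library. The summed leukocyte level was 315 to 328 CPM in the empty-vector and 433 to 443 CPM in the ADRA2A libraries, most of it from CD68, ITGB2 and HLA-DRA, and LCP1 went from a mean of 13.5 to 2.86 CPM. Of 10 endothelial markers 4 (TEK, ERG, CLDN5 and EMCN) were at 0, and the sum of 6.91 to 8.89 CPM in the empty-vector and 9.63 to 12.3 CPM in the ADRA2A libraries was mostly ESAM. The part of these markers in the differences of ZEB1 and SNAI2 was not tested.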

How the data were processed

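Per the labels, TRIzol-extracted RNA of 8 CFPAC-1 samples was read on a NextSeq instrument (Illumina). The authors deposited RSEM estimated counts per gene, unscaled, and 4.61% to 4.90% of the entries of a library had decimals. The submitters' processing notes name cutadapt, STAR, RSEM, DESeq2 and hg38. The annotation release and the use of strand are not given in the sources used here. Columns were matched to samples by the bracketed name in each title.

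Counts were rounded, filtered with filterByExpr (defaults, 2 groups), TMM-scaled and tested with edgeR 4.0.16 in R 4.3.3 on all 8 libraries with group as the single term. The standard error is the absolute log2 fold change divided by the square root of F. The code of the test was checked on simulated data with far fewer changed genes than here, which does not bear on the single calls. The members and lists were chosen with earlier results of these data known. Named genes are all 10 factors, up to 3 genes per list and direction with the smallest p-values, and 9 preset genes, with a few untested or uncalled list genes and promoter examples chosen after their values were seen. Gene positions and exon lengths are from GENCODE release 44 on GRCh38. Pairs of replicates differed by more than sampling noise (chi-square per degree of freedom 2.12 to 4.59). Alternatives were DESeq2 1.42.0, limma 3.58.1 voom, RLE or upper quartile factors, no filter beyond 1 count, a mean of at least 50 counts, a replicate block and leaving out each library.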

Additional observations from a re-analysis of the deposited data

Results flagged for a closer look

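SNAI1 in ADRA2A replicate 4, at 0.822 CPM (13 counts), stood far from the other 3 ADRA2A libraries, which held 4 to 6 counts. The gap to the nearest of them was 0.853 of the whole range of the group, above Dixon's 95% critical value for 4 samples. It was the only one of 18 groups of 4 examined over the 9 detected factors, and chance flags about 1 in 20 such groups.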

How the results depend on the processing

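The number of genes passing the threshold was 6314 and lay between 5823 and 6550 under the 7 other settings, and between 5703 and 6042 when 1 library was left out. The number of factors passing was 4 under all 7 other settings and 3 or 4 when 1 library was left out. ZEB1 (log2 fold change 0.56 to 0.67), SNAI2 (-0.89 to -0.79) and ESRP1 (-0.21 to -0.17) passed in all 8 fits that left out 1 library and under all 7 other settings. ESRP2 lay between -0.25 and -0.15 in the fits without 1 library, 3 of which lost the call, with adjusted p-values from 0.00291 to 0.0644. GRHL2, OVOL1, ZEB2 and TWIST2 passed under none of the settings that could fit them. ZEB2 and TWIST2 have no value at a mean of at least 50 counts because that filter removes them, and TWIST1, at 0 counts, has none. For SNAI1, which was not fitted, the log2 ratio of the group mean CPM was -0.28. That ratio went from -0.76 to 0.23 as 1 library was left out. With no filter the edgeR log2 fold change of SNAI1 was -0.26 (edgeR adjusted p = 0.774). Counts of the 8 lists stayed within 1.5 times under all 120 alternatives. With longest-transcript length in place of exon length the level of ZEB2 was 0.0613 and that of ESRP1 42.4 per kb, and the order of the 10 factors was the same. The replicate numbers did not pair the samples: the correlation of same-numbered deviations ran from -0.0421 to 0.0701, and 2 of 8 samples correlated best with their own number. With the replicate number as a block 6400 genes and 4 factors passed, with ZEB1 at 0.61 and SNAI2 at -0.85. Of 18 medians of neighbouring genes recomputed with 5 or 25 genes on each side, 8 moved by more than the spread between libraries. Low counts limit SNAI1, ZEB2, TWIST1 and TWIST2.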
